A study of Mus musculus with 6 samples.

Results

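*Gabra2*, *Gabra3*, *Gabra4*, *Gabra5*, *Gabrb1*, *Gabrb2* and *Gabrd* encode alpha, beta and delta subunits of the GABA-A receptor, and these 7 genes, taken by their symbols, are described here out of the 55357 genes counted in the series. They do not cover the whole family, and the shares given below are shares among these genes. The data were RNA-seq read counts from 6 libraries of primary neuronal cultures of wild type mice, prepared in the study from the cortex and hippocampus of C57BL/6N embryos. The first group of 3 libraries came from cultures given a lentivirus carrying a control or scrambled shRNA (shCtrl). The second group of 3 came from cultures given a lentivirus carrying an shRNA against *Pla2g4e* (sh*Pla2g4e*), the gene of a phospholipase of the group IV family, and both groups were transduced at DIV4 and collected at DIV14, where DIV stands for days in vitro. A single hairpin sequence was used, at a virus dose chosen to give a partial knockdown and matched in both groups. The methods describe no sorting of cells for RNA-seq, so that every value is an average over the cells of a culture. The labels do not say whether the 3 libraries of a group came from separate cultures or litters, and the p-values therefore measure the spread between these libraries, which may be technical.

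GABA-A receptors are the chloride channels through which GABA, the main inhibitory transmitter of the forebrain, acts fast. Each channel is a ring of subunits in which alpha and beta subunits form the binding site for GABA, and a gamma or delta subunit usually completes the ring. The alpha subunit sets where the channel sits and how it responds, and forebrain neurons are known to change the mixture of alpha subunits as they mature. Receptors with the delta subunit lie outside synapses, where they carry a lasting current.

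Between 17054717 and 23570180 reads were counted per library, and the 7 genes held between 240 reads (*Gabrd*) and 6569 reads (*Gabrb1*) in a library. Levels are given as CPM, read counts brought to a common library size with TMM scaling, and a log2 change is the log2 fold change of sh*Pla2g4e* over shCtrl, with its standard error (SE). *Pla2g4e* itself had 38.0, 35.1 and 35.4 CPM in shCtrl replicates 1 to 3 against 21.8, 14.1 and 18.7 CPM in sh*Pla2g4e* replicates 1 to 3. Its libraries did not overlap between groups, and the library labels hold for the targeted gene. Markers of several cell types moved with the groups. The summed level of 10 pan-neuronal markers ran from 5865 to 6417 CPM in shCtrl and from 5354 to 5771 CPM in sh*Pla2g4e* libraries, that of 10 glutamatergic markers from 2228 to 2414 and from 1668 to 1950 CPM, and that of 14 interneuron markers from 1141 to 1216 and from 1032 to 1123 CPM. The 9 astrocyte markers summed to 2911 to 3736 CPM in shCtrl and 1979 to 3170 CPM in sh*Pla2g4e* libraries, and 3 of them passed the edgeR test described below as lower, against 4% of all genes. With the replicate number as a block, 7 astrocyte markers were called lower and 1 higher, against 9.02% and 6.50% of all genes. Of the pan-neuronal markers 3 were called lower and 2 higher, of the glutamatergic 2 and 1, and of the interneuron markers 3 and 2. With the block these counts were 3 and 3, 3 and 2, and 4 and 3. Without the block, 4% of all genes were called lower and 2.48% higher. The 9 oligodendrocyte-lineage markers summed to 508 to 572 CPM in shCtrl and 507 to 657 CPM in sh*Pla2g4e* libraries. Microglial markers summed to at most 9.50 CPM in any library, and the 7 endothelial and mural markers to 27.5 to 71.5 CPM in shCtrl and 32.2 to 77.0 CPM in sh*Pla2g4e* libraries, with no reads for *Cldn5*, a defining marker of brain endothelium. The part of these differences in the results below was not tested, and in such bulk samples fewer cells of a type and less RNA per cell cannot be told apart.

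The hairpin and its match in *Gabrd* are shown first, because a short RNA can also act on transcripts that pair with bases 2 to 8 of its guide strand, the seed. The capitals mark the seed in the guide and the 7 bases that pair with it in the target and in *Gabrd*, each printed 5′ to 3′.
sh2 target in Pla2g4e: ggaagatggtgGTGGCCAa
sh2 guide strand: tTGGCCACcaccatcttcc
Gabrd coding sequence: ttgccctagagGTGGCCAgcattgaccat
Searched on the sense strand of the longest coding transcript of each gene (GENCODE vM21, GRCm38), GTGGCCA occurred once in the 3′ UTR of *Gabrb1*, which is 12228 bases long, and once in the coding sequence of *Gabrd*. The transcripts of *Gabra2*, *Gabra3*, *Gabra4*, *Gabra5* and *Gabrb2* held it neither in the coding sequence nor in any annotated 3′ UTR. Among the 15679 tested genes with a 3′ UTR, 11.9% held the 7 bases there in that transcript and 25.7% held them in the coding sequence. A match is a description of the letters only. In the comparison below, *Gabrd* rose, and *Gabrb1*, the member with the match in its 3′ UTR, was called lower with the replicate number as a block and by DESeq2 but not in edgeR without the block. The part of the seed in these values was not tested.

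To ask which subunit genes differed after *Pla2g4e* knockdown, edgeR's quasi-likelihood test was run between both groups over 21876 genes, and a gene was called at a Benjamini-Hochberg adjusted p under 0.01. The 7 genes did not move together. *Gabra3* and *Gabra5* fell, *Gabra2* and *Gabrd* rose, and *Gabra4*, *Gabrb1* and *Gabrb2* did not pass the threshold. The 4 calls among 7 genes (57.1%) stand beside 6.49% of all genes tested, with 4% of all genes called lower and 2.48% higher. The CPM of both groups did not overlap for 5 of the 7 genes, against 30.0% of all genes. Their median log2 change was −0.024, against 0.029 over all genes.

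**Figure D1:**
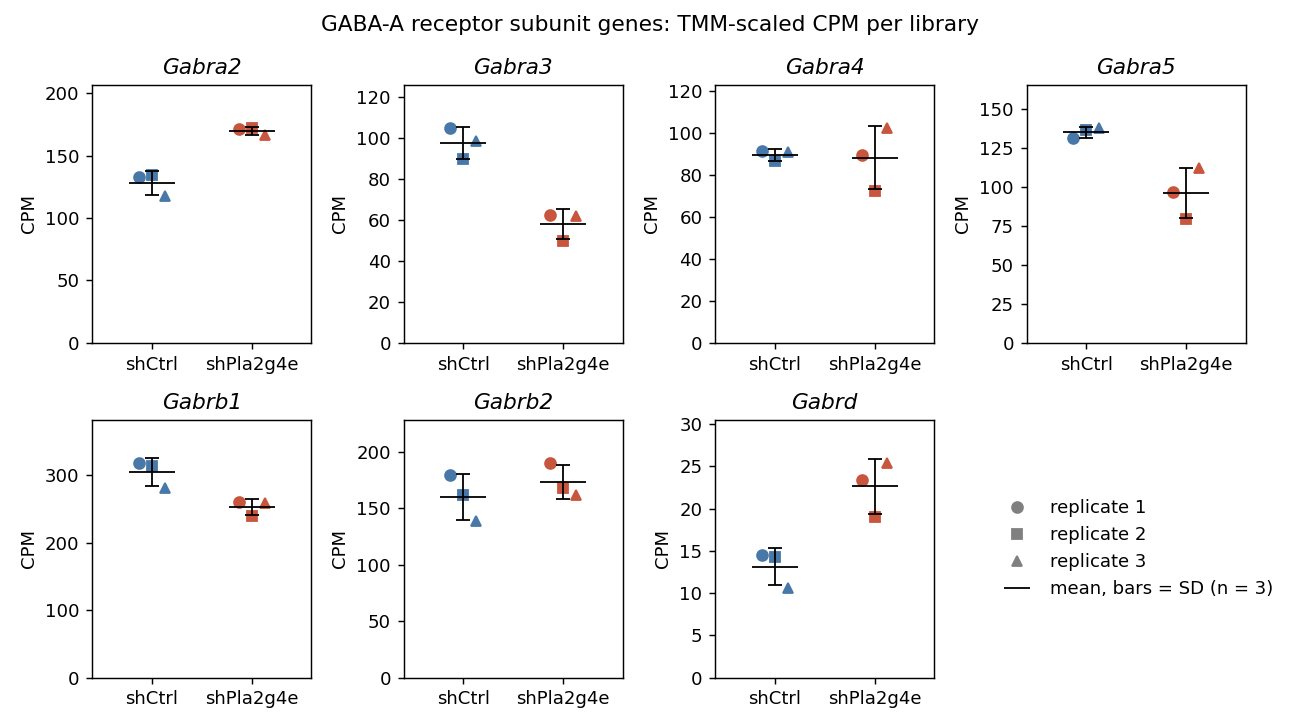
TMM-scaled CPM of the 7 subunit genes in each library, with 1 panel per gene, shCtrl in blue, sh*Pla2g4e* in red, symbols for the replicate number, and the mean with its SD (n = 3) in black. The groups separate for *Gabra2*, *Gabra3*, *Gabra5*, *Gabrb1* and *Gabrd* and overlap for *Gabra4* and *Gabrb2*.

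Among the alpha subunits, *Gabra3* had the smallest p. *Gabra3* (ENSMUSG00000031343, chromosome X, 71476287 to 71700454 on the minus strand of GRCm39) encodes the alpha 3 subunit, which is prominent in the developing cortex. It had 105.0, 89.6 and 98.5 CPM in shCtrl replicates 1 to 3 against 62.5, 49.8 and 62.1 CPM in sh*Pla2g4e* replicates 1 to 3. Every sh*Pla2g4e* library lay below every shCtrl library. The group means came to 97.7 ± 7.70 and 58.2 ± 7.21 CPM (SD, n = 3 each), so that 59.5% of the control level was left, a log2 change of −0.75 (SE 0.098, edgeR adjusted p = 1.06e-04). The gene was called under every test, scaling and filter run, and the log2 change lay between −0.81 and −0.65 as libraries were left out in turn.

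*Gabra5* (ENSMUSG00000055078, chromosome 7, 57057420 to 57159807 on the minus strand) encodes the alpha 5 subunit, best known from hippocampal receptors outside synapses. Its levels were 130.9, 136.0 and 137.6 CPM under shCtrl against 96.9, 79.3 and 111.6 CPM under sh*Pla2g4e*. The groups did not overlap, but the sh*Pla2g4e* libraries were spread more widely, with replicate 2 lowest and replicate 3 nearest to the controls. The mean went from 134.8 ± 3.51 to 95.9 ± 16.2 CPM (SD, n = 3 each), that is a log2 change of −0.49 (SE 0.10, edgeR adjusted p = 0.00459). The call was kept without sh*Pla2g4e* replicate 3 (edgeR adjusted p = 2.29e-04) and lost without any other library. The adjusted p in edgeR was 0.0112 without shCtrl replicate 1, 0.0278 without shCtrl replicate 2, 0.0141 without shCtrl replicate 3, 0.0194 without sh*Pla2g4e* replicate 1 and 0.0174 without sh*Pla2g4e* replicate 2, and 0.0117 with libraries scaled by their size alone, while the log2 change stayed between −0.61 and −0.37 without any 1 library. About 4.98% of the exon bases of *Gabra5* overlap a gene on the opposite strand, and reads from there were left out by the counting.

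*Gabra2* (ENSMUSG00000000560, chromosome 5, 71114940 to 71253192 on the minus strand) encodes the alpha 2 subunit, which is found at inhibitory synapses and at the axon initial segment of pyramidal cells. It was the alpha gene that rose. The shCtrl libraries had 133.1, 134.7 and 117.3 CPM and the sh*Pla2g4e* libraries 171.0, 172.2 and 166.3 CPM. All sh*Pla2g4e* libraries lay above all shCtrl libraries, and within 6 CPM of each other. The mean increased from 128.4 ± 9.62 to 169.9 ± 3.13 CPM (SD, n = 3 each), or to 132.3% of the control, a log2 change of 0.40 (SE 0.080, edgeR adjusted p = 0.00304). The adjusted p in edgeR was 0.0139 without shCtrl replicate 2, 0.0165 without sh*Pla2g4e* replicate 1 and 0.0114 without sh*Pla2g4e* replicate 2, with log2 changes of 0.34 to 0.44 when any 1 library was left out.

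*Gabra4* (ENSMUSG00000029211, chromosome 5, 71727092 to 71815651 on the minus strand), whose alpha 4 subunit often assembles with delta, did not pass the test. It had 91.4, 86.6 and 91.3 CPM under shCtrl against 89.9, 72.7 and 102.6 CPM under sh*Pla2g4e*, which held both the lowest and the highest of the 6 values. Mean levels of both groups were 89.8 ± 2.76 and 88.4 ± 15.0 CPM (SD, n = 3 each), with a log2 change of −0.024 (SE 0.10, edgeR adjusted p = 0.925). The sign of this value was positive with upper quartile scaling, with library size alone and without sh*Pla2g4e* replicate 2.

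Of the beta subunits, neither passed the threshold. *Gabrb1* (ENSMUSG00000029212, chromosome 5, 71815456 to 72306380 on the plus strand), for beta 1, had 318.7, 314.2 and 281.2 CPM under shCtrl against 260.2, 239.8 and 259.1 CPM under sh*Pla2g4e*. The groups did not overlap, and the sh*Pla2g4e* library was the lower one in all 3 pairs with the same replicate number. Mean levels of both groups were 304.7 ± 20.5 and 253.0 ± 11.5 CPM (SD, n = 3 each), with a log2 change of −0.27 (SE 0.080, edgeR adjusted p = 0.0381), which missed the threshold. With the replicate number as a block, which the libraries' shared deviations call for, *Gabrb1* was called lower (adjusted p = 7.69e-04), as it was by DESeq2 (adjusted p = 0.00821). With the block, 5 of the 7 genes were called, 3 lower and 2 higher, against 15.5% of all genes tested, 9.02% lower and 6.50% higher.

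*Gabrb2* (ENSMUSG00000007653, chromosome 11, 42310584 to 42519855 on the plus strand) encodes beta 2, a common partner of alpha subunits in the adult cortex. Its values of 179.3, 161.6 and 139.1 CPM in shCtrl and 190.6, 168.2 and 161.9 CPM in sh*Pla2g4e* libraries overlapped. The sh*Pla2g4e* library was the higher in each of the 3 pairs, by 0.088, 0.057 and 0.22 on the log2 scale. The means of 160.0 ± 20.1 and 173.6 ± 15.1 CPM (SD, n = 3 each) gave a log2 change of 0.12 (SE 0.097, edgeR adjusted p = 0.504, and 0.195 with the replicate block). It was not called under any alternative.

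*Gabrd* (ENSMUSG00000029054, chromosome 4, 155469437 to 155482569 on the minus strand), the gene of the delta subunit, was the least abundant of the 7 per exon length and had the largest log2 change of them upwards. It had 14.5, 14.2 and 10.7 CPM under shCtrl against 23.4, 19.1 and 25.4 CPM under sh*Pla2g4e*, with no overlap. The mean rose from 13.1 ± 2.15 to 22.6 ± 3.26 CPM (SD, n = 3 each), or to 172.2% of the control, a log2 change of 0.78 (SE 0.14, edgeR adjusted p = 0.00172). *Gabrd* was called under every alternative run, with a log2 change between 0.65 and 0.89 over the fits without a library. The log2 ratios within pairs 1, 2 and 3 were 0.69, 0.42 and 1.25, the third pair being the largest.

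**Figure D2:**
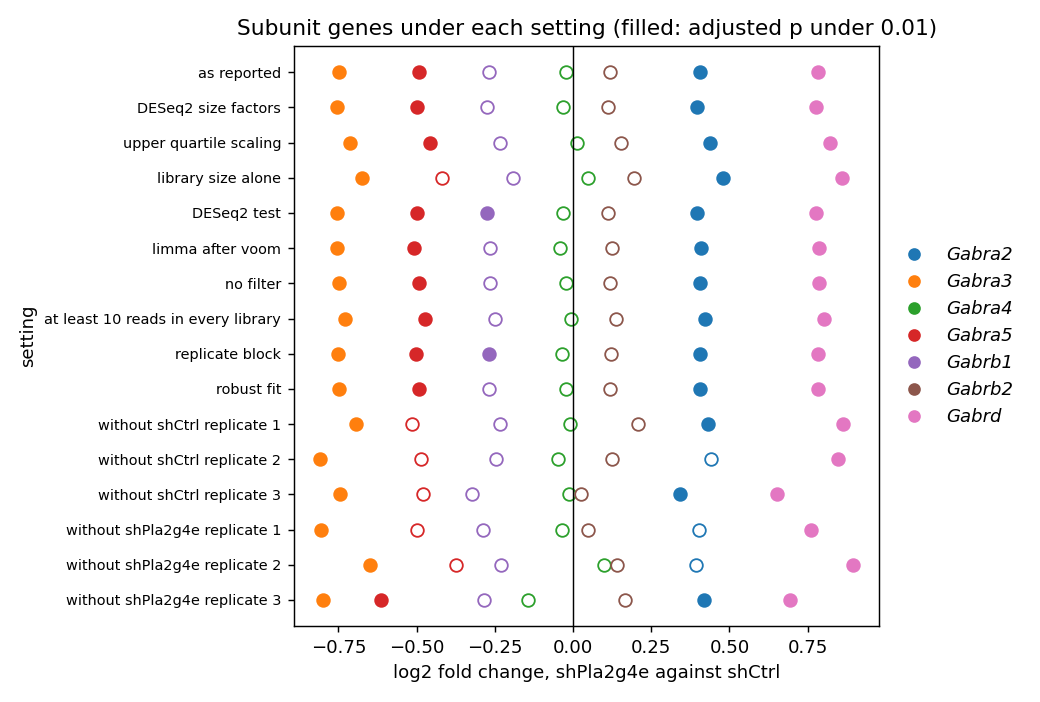
Log2 fold change of each subunit gene, in its own colour, as reported and under each alternative test, scaling, filter or left-out library, filled where the adjusted p was under 0.01. *Gabra3* and *Gabrd* are filled in every row, *Gabra2* and *Gabra5* lose the call in some rows that leave out a library, and *Gabra4* lies on both sides of 0.

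Levels of different genes were compared only per length, as CPM per kilobase of exon (RPKM). In shCtrl cultures *Gabra5* was highest at 45.3 ± 1.18 RPKM, followed by *Gabrb2* (25.2 ± 3.17), *Gabra3* (24.9 ± 1.96), *Gabrb1* (22.0 ± 1.48), *Gabra2* (16.8 ± 1.26), *Gabra4* (14.8 ± 0.453) and *Gabrd* (4.57 ± 0.748, SD, n = 3 each). The libraries of *Gabrb2* and *Gabra3* overlapped in this order, as did those of *Gabra3* and *Gabrb1*, and the other neighbours did not. In sh*Pla2g4e* cultures the order was *Gabra5* (32.3 ± 5.44 RPKM), *Gabrb2* (27.3 ± 2.37), *Gabra2* (22.2 ± 0.409), *Gabrb1* (18.3 ± 0.828), *Gabra3* (14.8 ± 1.84), *Gabra4* (14.5 ± 2.47) and *Gabrd* (7.87 ± 1.13). There *Gabra5* overlapped *Gabrb2* and *Gabra3* overlapped *Gabra4*. *Gabra2* and *Gabra3* thus stood in the reverse order in both groups of libraries, with *Gabra3* above *Gabra2* in all shCtrl libraries and below it in all sh*Pla2g4e* libraries.

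The share of each alpha gene in the summed reads per kilobase of *Gabra2*, *Gabra3*, *Gabra4* and *Gabra5* was computed per library, a measure that does not depend on how libraries are scaled. *Gabra2* took 16.9%, 17.6% and 15.1% in shCtrl replicates 1, 2 and 3 and 26.1%, 30.5% and 23.7% in sh*Pla2g4e* replicates 1, 2 and 3. *Gabra3* took 25.9%, 22.7% and 24.7% in the shCtrl libraries and 18.6%, 17.2% and 17.2% in the sh*Pla2g4e* libraries. *Gabra5*, the largest share in every library, took 42.6%, 45.5% and 45.5% in shCtrl and 38.0%, 36.1% and 40.8% in sh*Pla2g4e* libraries. *Gabra2* therefore gained and *Gabra3* and *Gabra5* lost part of the alpha transcripts in each sh*Pla2g4e* library compared with each shCtrl library. *Gabra4* took 14.5% ± 0.298 and 17.3% ± 1.07 (SD, n = 3 each), also without overlap, although its CPM did not pass the test.

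The mean share of *Gabra2* was 10.3 percentage points higher in sh*Pla2g4e* cultures, that of *Gabra3* changed by −6.78 points, that of *Gabra5* changed by −6.24 points and that of *Gabra4* by 2.76 points. In the beta pair, the share of *Gabrb2* in *Gabrb1* and *Gabrb2* was 53.2% ± 1.64 in shCtrl and 59.8% ± 1.98 in sh*Pla2g4e* cultures (SD, n = 3 each), 6.60 points higher. Each of these 5 differences had p = 0.10 in the two-sided exact permutation test (adjusted p = 0.10 over the 5), which is the smallest value that 3 against 3 libraries allow, so that none could pass 0.05. With all tested and untested subunit genes of the class counted in the denominator, the differences were 6.29 points for *Gabra2*, −6.47 for *Gabra3*, −7.33 for *Gabra5* and 3.42 for *Gabrb2* (exact permutation p = 0.10 each), and 1.08 for *Gabra4* (p = 0.30). Without division by length, the difference for *Gabra4* was 1.41 points and its libraries overlapped (exact permutation p = 0.30).

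**Figure D3:**
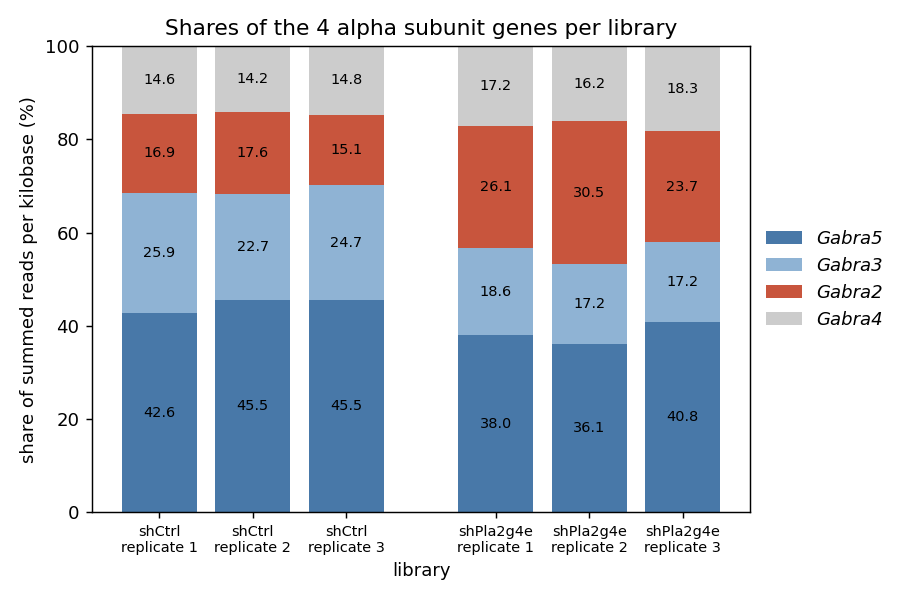
Share of *Gabra5*, *Gabra3*, *Gabra2* and *Gabra4* in their summed reads per kilobase (%), 1 stacked bar per library, with the value printed in each segment. The segment of *Gabra2* is larger and those of *Gabra3* and *Gabra5* are smaller in all 3 sh*Pla2g4e* libraries.

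The positions of the genes put opposite changes next to each other. *Gabra3* lies on chromosome X between *Gabre*, for the epsilon subunit, at a gap of 157.9 kb and *Gabrq*, for the theta subunit, at a gap of 168.3 kb, and no other tested gene lies entirely between the outer ends of this group. *Gabre* had 3.98, 2.06 and 1.51 CPM under shCtrl against 8.37, 9.15 and 8.11 CPM under sh*Pla2g4e*, and *Gabrq* had 19.3, 12.6 and 13.7 and then 52.8, 39.0 and 39.9 CPM. Both rose, *Gabre* by a log2 change of 1.77 (SE 0.27, edgeR adjusted p = 3.76e-04) and *Gabrq* by 1.53 (SE 0.15, adjusted p = 8.49e-06), on either side of *Gabra3*, which fell. On chromosome 5, *Gabra2* lies 473.9 kb from *Gabra4*, and *Gabra4* and *Gabrb1* start head to head with 196 bases in common. Among these 3 only *Gabra2* was called in edgeR without the replicate block. Exon bases that overlap an exon of a gene on the opposite strand make up 0.756% of the exon bases of *Gabra4* and 0.332% of those of *Gabrb1*.

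Of the 12 GABA-A receptor subunit genes outside the 7, 9 had enough reads to be tested. In edgeR without the replicate block, *Gabre* and *Gabrq* were the 2 called, both higher, against 2.48% of all genes called higher. With the block 3 were called higher and none lower, against 6.50% and 9.02% of all genes. None was called lower by edgeR, DESeq2 or limma after voom. The unadjusted p in edgeR was under 0.05 with a lower level for 1 gene and with a higher level for 4. *Gabrg1* and *Gabrg3*, for gamma subunits, had log2 changes of −0.21 (SE 0.16, edgeR adjusted p = 0.462) and −0.26 (SE 0.092, adjusted p = 0.0776). *Gabrr1* and *Gabrr2*, for rho subunits, reached at most 21 and 26 reads in a library and did not pass. *Gabra6* and *Gabrr3* had at most 2 and 4 reads in any library, and *Gabrp* had none, a count that allows up to 3 reads in a library (counting error only).

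**Figure D4:**
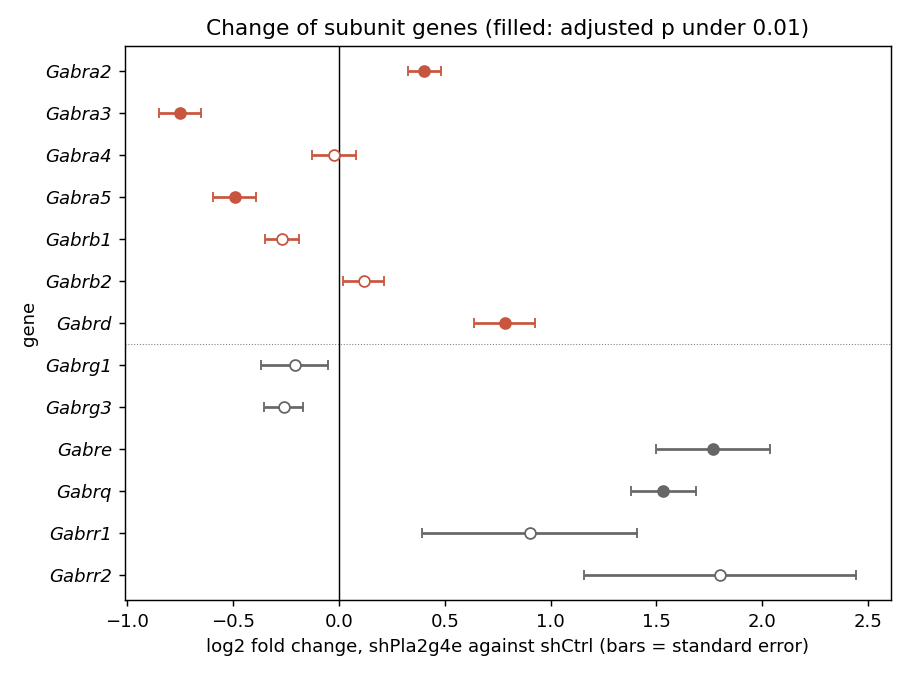
Log2 fold change of sh*Pla2g4e* over shCtrl with its standard error for the 7 subunit genes (red) and 6 of the 9 other tested subunit genes (grey), filled where the adjusted p was under 0.01. *Gabre* and *Gabrq* lie at 1.77 and 1.53, beyond the 0.78 of *Gabrd*.

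Genes for GABA synthesis, uptake, chloride transport and GABA-B receptors, 12 in the list and all tested, were called lower in 5 cases, against 4% of all genes, and in 6 cases with the replicate block, against 9.02% (median log2 change −0.34). None was called higher by edgeR, DESeq2 or limma after voom, or had an unadjusted p under 0.05 with a higher level in edgeR. *Slc32a1*, which loads GABA into vesicles, fell with a mean of 60.8 ± 2.94 CPM under shCtrl and 39.1 ± 0.399 CPM under sh*Pla2g4e* (SD, n = 3 each) and a log2 change of −0.64. *Slc6a11*, a mainly astrocytic transporter that clears GABA from the extracellular space, fell by a log2 change of −0.94, to 52.2% of the control. *Gabbr2*, for a GABA-B receptor subunit, fell by −0.58 and *Abat*, which degrades GABA, by −0.40 (edgeR adjusted p = 0.00443). *Abat* missed the threshold with libraries scaled by size alone (edgeR adjusted p = 0.0115) and without shCtrl replicate 1 (0.0211), shCtrl replicate 2 (0.0197) or sh*Pla2g4e* replicate 1 (0.0380).

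Genes of proteins that gather, assemble or carry the receptors made up a further list. Of these 24 genes, 23 were tested, with a median log2 change of −0.095, and 1 was called lower, against 6.49% of all genes called in either direction. None was called higher by edgeR, DESeq2 or limma after voom, and 1 had an unadjusted p under 0.05 with a higher level in edgeR. The gene called was *Trak2*, for an adaptor of kinesin-driven transport, at 153.0 ± 5.33 and 116.8 ± 5.96 CPM (SD, n = 3 each) and a log2 change of −0.39 (edgeR adjusted p = 0.00322), with adjusted p from 0.0107 to 0.0251 without shCtrl replicate 1, shCtrl replicate 2, sh*Pla2g4e* replicate 1 or sh*Pla2g4e* replicate 2. With the replicate block 5 were called lower and 1 higher, against 15.5% of all genes in either direction. *Gphn*, for the scaffold gephyrin, had 89.6 ± 8.76 and 79.1 ± 6.30 CPM (SD, n = 3 each), that is a log2 change of −0.18 (SE 0.091, edgeR adjusted p = 0.238), and is named as the main scaffold after its value was seen.

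The genes whose log2 CPM followed that of *Gabra3* most closely over the 6 libraries, out of 10908 genes whose log2 CPM averaged 3 or more, were *Serinc1*, *Slc38a7* and *Zmat4* (Pearson r = 0.999, 0.998 and 0.998). They share the libraries and the group difference with *Gabra3*, and the correlations are a description. *Zmat4* had mean levels of 25.3 and 13.9 CPM and a log2 change of −0.87, close to that of *Gabra3*, whereas *Serinc1* and *Slc38a7* had smaller ones of −0.31 and −0.36 (edgeR adjusted p = 0.0157 and 0.0107, and 2.69e-05 and 4.71e-04 with the replicate block).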

How the data were processed

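The authors aligned reads of poly(A) RNA libraries (stranded kit) with STAR and deposited raw counts per gene, 1 file per library, made with featureCounts 1.6.0 on GENCODE vM28 exons (GRCm39, per the file headers), whereas the methods name mm10 and GENCODE M18. The command held no strand, pair or multi-mapping option, so reads on exons of overlapping genes and multi-mapping reads were left out. Symbols came from GENCODE vM21 by gene ID, for 52081 of 55357 genes. Genes reaching 6 reads in any library were tested together with edgeR 4.0.16 in R 4.3.3 (TMM, glmQLFit, glmQLFTest), Benjamini-Hochberg adjustment and a threshold of 0.01. Shares were compared with exact permutation tests. Alternatives were limma after voom (3.58.1, the test of the study), DESeq2 (1.42.0), other scalings and filters, a robust fit, a threshold of 0.05, a replicate block and leaving out each library. The fit was tested on simulated data. Libraries of a group differed beyond sampling noise (chi-square per gene 6.03 to 15.4). Libraries with the same number in both groups deviated together (r from 0.189 to 0.461, against −0.393 to 0.108 for other pairs, over 10908 genes), so values with the replicate number as a block are given where they change a call. The tests and calls reported first, and the permutation tests of shares, did not use the pairing.

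The members and lists were chosen with earlier results of these data known. Named were all members, the other subunit genes, the genes of a GABA list that passed the threshold (at most 6 by p) and the 3 genes most correlated with the member of smallest p. 1 of the 119 listed genes had no symbol match. Some listed genes were counted in their lists but are not reported here by name.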

Additional observations from a re-analysis of the deposited data

How the results depend on the processing

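No call among the 7 subunit genes changed direction, and *Gabra3* and *Gabrd* were called under every alternative run. Of the 7, 1 was called lower with library size alone, and leaving out each library gave 1 to 2 lower and 1 to 2 higher. *Gabra4*, never called, changed sign, at 0.012 with upper quartile scaling, 0.049 with library size alone and −0.14 to 0.099 when a library was left out. Of the receptor partners, the number called lower was 4 with DESeq2, 2 with limma after voom, 3 with no filter, 5 with the replicate block, 2 with the robust fit, 5 at a threshold of 0.05 and 0 to 3 without a library. The number higher was 1 with library size alone, no filter, the replicate block or a threshold of 0.05, and 0 to 1 without a library. Over all genes, 876 were called lower and 543 higher, 609 and 796 with library size alone, 1360 and 989 with no filter, 1973 and 1422 with the replicate block, 1599 and 1214 at a threshold of 0.05, and 449 to 932 lower and 246 to 681 higher without a library, fewest without shCtrl replicate 2. The cause was not tested. Apart from *Gabrb1*, *Serinc1* and *Slc38a7*, called with it, and the counts given here, the replicate block changed no call of a gene named here. The shares kept their direction under every alternative, and with sign flips of the 3 pairs, chosen after seeing the data, the exact permutation p was 0.25, the smallest that 3 pairs allow. DESeq2 gave no adjusted p for 5514 genes. At this depth, the rho subunit genes and other genes with few reads are known only roughly.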
